A study of Mus musculus with 15 samples.

Results

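The nuclear genes of oxidative phosphorylation were followed in RAW 264.7 cells, a mouse macrophage-like line that forms multinucleated osteoclast-like cells when given RANKL, the cytokine that drives osteoclast formation. The genes were all those with a single annotated symbol beginning with Nduf, Sdh, Uqcr, Cox4, Cox5, Cox6, Cox7, Cox8 or Atp5, and each was read from its brightest probe set. These were 73 of the 8251 genes on the array with 1 symbol: 29 genes of complex I, 4 of complex II, 7 of complex III, 15 of complex IV, 14 of complex V, and 4 assembly factors (Ndufaf1, Ndufaf4, Sdhaf1 and Sdhaf2). Subunits that the mitochondrial genome encodes have other symbols and are not in the set, and Cyc1, cytochrome c1 of complex III, falls outside the rule and is given among the other respiratory chain genes.

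RNA of cells grown with RANKL was measured on 7 arrays, 1 of day 1, 2 of day 2, 2 of day 4 and 2 of day 5. RNA of control cells grown without it was measured on 8 arrays, 1 of day 1, 2 each of days 2, 3 and 4, and 1 of day 5. There was no RANKL array of day 3. All cells were kept in alpha-MEM with serum, and the RANKL or control medium was serum-free and given on days 0 and 3. By their labels only the RANKL cells of days 4 and 5 were multinuclear. The labels do not say that replicate arrays came from separate cultures, so the p-values measure the spread between these arrays, which may be technical. In RNA of whole cultures, fewer cells that express a gene and less of its RNA per cell cannot be told apart.

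Oxidative phosphorylation makes most of the ATP of a resting cell. Complex I (NADH dehydrogenase) and complex II (succinate dehydrogenase, also an enzyme of the TCA cycle) pass electrons to ubiquinone, complex III passes them to cytochrome c, complex IV (cytochrome c oxidase) passes them to oxygen, and complex V (ATP synthase) uses the resulting proton gradient. Osteoclasts are rich in mitochondria, and mitochondrial biogenesis is known to accompany their formation. Several subunits of complex IV exist as isoform pairs, of which one is found in most tissues and the other mainly in heart and skeletal muscle: Cox6a1 and Cox6a2, Cox7a2 and Cox7a1, and Cox8a and Cox8b.

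All arrays had been scaled to a trimmed mean signal of 500, and the median signal ran between 103 and 149. The ratio of the 3 prime to the 5 prime beta-actin probe set, a sign of RNA integrity, was 1.02 to 1.39 on RANKL arrays and 1.01 to 1.25 on control arrays. RANKL day 2 replicate 2 had the highest ratio (1.39), and 60 of the 73 genes were higher on it than on replicate 1, by a median of 0.36 on the log2 scale. On RANKL day 5 replicate 2, 63 of 73 were higher than on replicate 1, by a median of 0.26, while over all probe sets the median difference was 0.01. The same array read at the level of days 1 and 2 for Cox6a2. It was kept in the group of its label, and whether that label is right was not tested. Without it the median of the 73 genes was 0.13 in place of 0.27 for the RANKL effect at day 5, 0.14 in place of 0.16 for that over 4 days, and -0.29 in place of -0.23 for culture time in RANKL cells, where 17 genes in place of 12 passed limma at an adjusted p of 0.05. No filter on low signals was applied, and 8 of the 73 genes lay below the median of the table. Probe sets with the f suffix, which can also bind similar transcripts, served 11 of them. Over the days with both treatments, 5 of 8 osteoclast markers passed and were higher in RANKL than in control cells. They were led by Acp5 (tartrate-resistant acid phosphatase, log2 change 4.33) and Ctsk (cathepsin K, 2.57). Of 11 macrophage markers, 4 passed and were lower in RANKL than in control cells. Of all probe sets, 1.09% passed in either direction over these days. At day 1 (1 array against 1), 1 of the 8 osteoclast markers had a positive change, against 42.5% of all probe sets. Their median there was -0.17.

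Levels of the complexes were set against each gene's own mean over the 15 arrays, on the log2(signal + 32) scale used throughout. The median of the 73 genes was 0.20 (day 1), 0.13 and 0.50 (day 2), -0.03 and -0.16 (day 4), and -0.06 and 0.21 (day 5) on RANKL arrays. On control arrays it was 0.07 (day 1), 0.16 and 0.01 (day 2), -0.16 and -0.21 (day 3), -0.14 and -0.22 (day 4), and -0.19 (day 5). Every control array of days 3 to 5 lay below every control array of days 1 and 2. The RANKL replicates of days 2 and 5 stood apart from each other. So did the control replicates of day 2, where 20 of 73 genes were higher on replicate 2 and the median of replicate 2 minus replicate 1 was -0.26. The pooled replicate SD of this median was 0.15. Complex III had 0.40 (day 1), 0.16 and 0.70 (day 2), 0.13 and -0.16 (day 4), and -0.07 and 0.27 (day 5) on RANKL arrays. On control arrays it had 0.10 (day 1), 0.18 and -0.02 (day 2), and -0.18 to -0.36 on those of days 3 to 5, with a replicate SD of 0.22. The genes varied about as much over the arrays as others did, with a median SD of 0.32 against 0.34 for all probe sets.

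**Figure D1:**
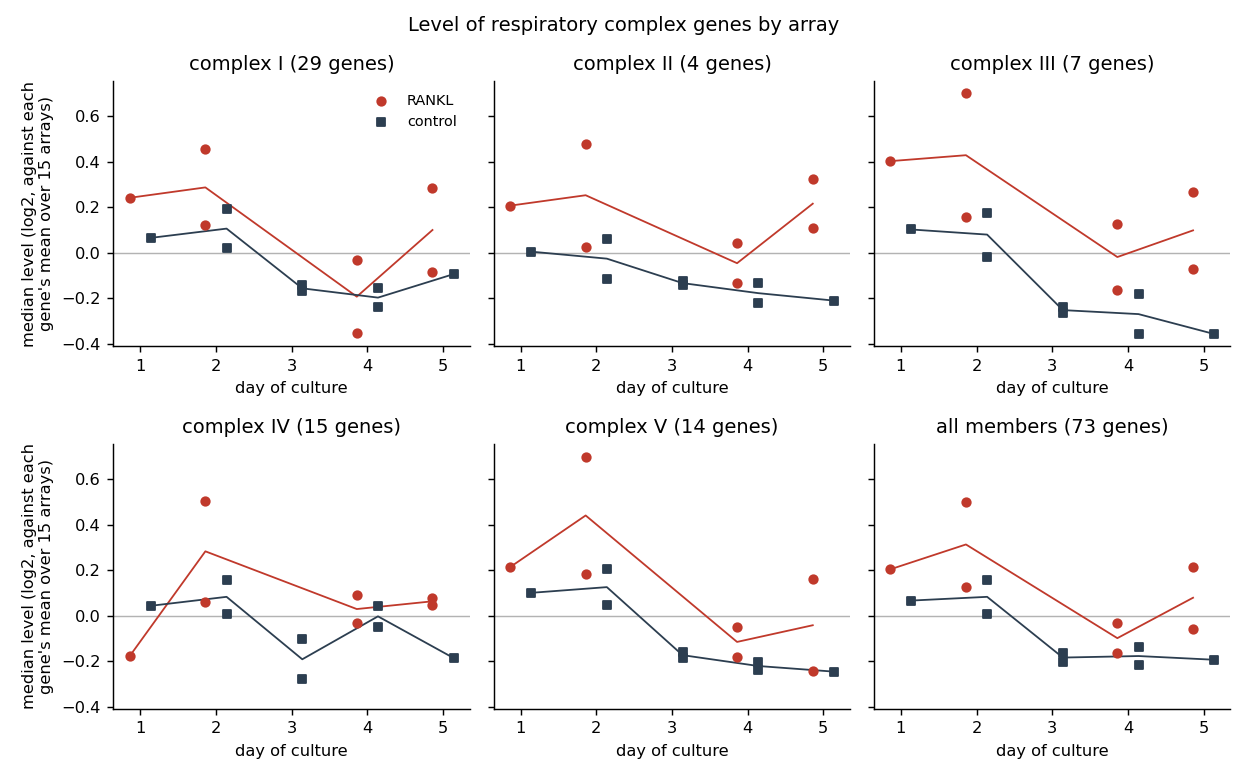
Median level of the genes of each complex on each array by day, in log2 against each gene's own mean over the 15 arrays, for RANKL (red circles) and control (dark squares) cells, with lines joining group means. Control arrays of days 3 to 5 sit between -0.14 and -0.22 for all genes together, below those of days 1 and 2 (0.01 to 0.16).

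The first comparison asks how RANKL cells differed from control cells at equal culture time, as the mean over the 4 days with both. None of the 73 genes passed an adjusted p of 0.05 in limma, where 1.09% of all probe sets did; at an unadjusted p under 0.05 there were 14 higher and 1 lower, where 5.12% of all probe sets were higher and 5.95% lower. The changes leaned one way: 64 of 73 were positive (87.7%), against 51.9% of all probe sets, with a median log2 change of 0.16 against 0.01. By complex, the median was 0.12 for complex I (25 of 29 positive), 0.28 for complex II (4 of 4), 0.44 for complex III (7 of 7), 0.15 for complex IV (11 of 15) and 0.23 for complex V (13 of 14). With RANKL day 2 replicate 1 left out 2 genes passed, with RANKL day 5 replicate 1 left out 3 did, and with any other array left out none did. With 1 array left out at a time the median of all 73 ran between 0.11 and 0.22 that of complex I between 0.06 and 0.18, complex II 0.18 and 0.30, complex III 0.35 and 0.50, complex IV 0.06 and 0.24 and complex V 0.07 and 0.29. Complexes IV and V were lowest without the control array of day 5, which leaves no control at that day, and complex I without RANKL day 2 replicate 2. The beta-actin ratio was 1.25 and 1.39 (day 2), 1.18 and 1.34 (day 4), and 1.08 and 1.02 (day 5) on RANKL arrays. It was 1.17 and 1.25, 1.10 and 1.16, and 1.01 on control arrays of these days. With that ratio as a covariate the median of the 73 was 0.16. Of 27 other probe sets for the same genes, 16 had the sign of the one used.

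**Figure D2:**
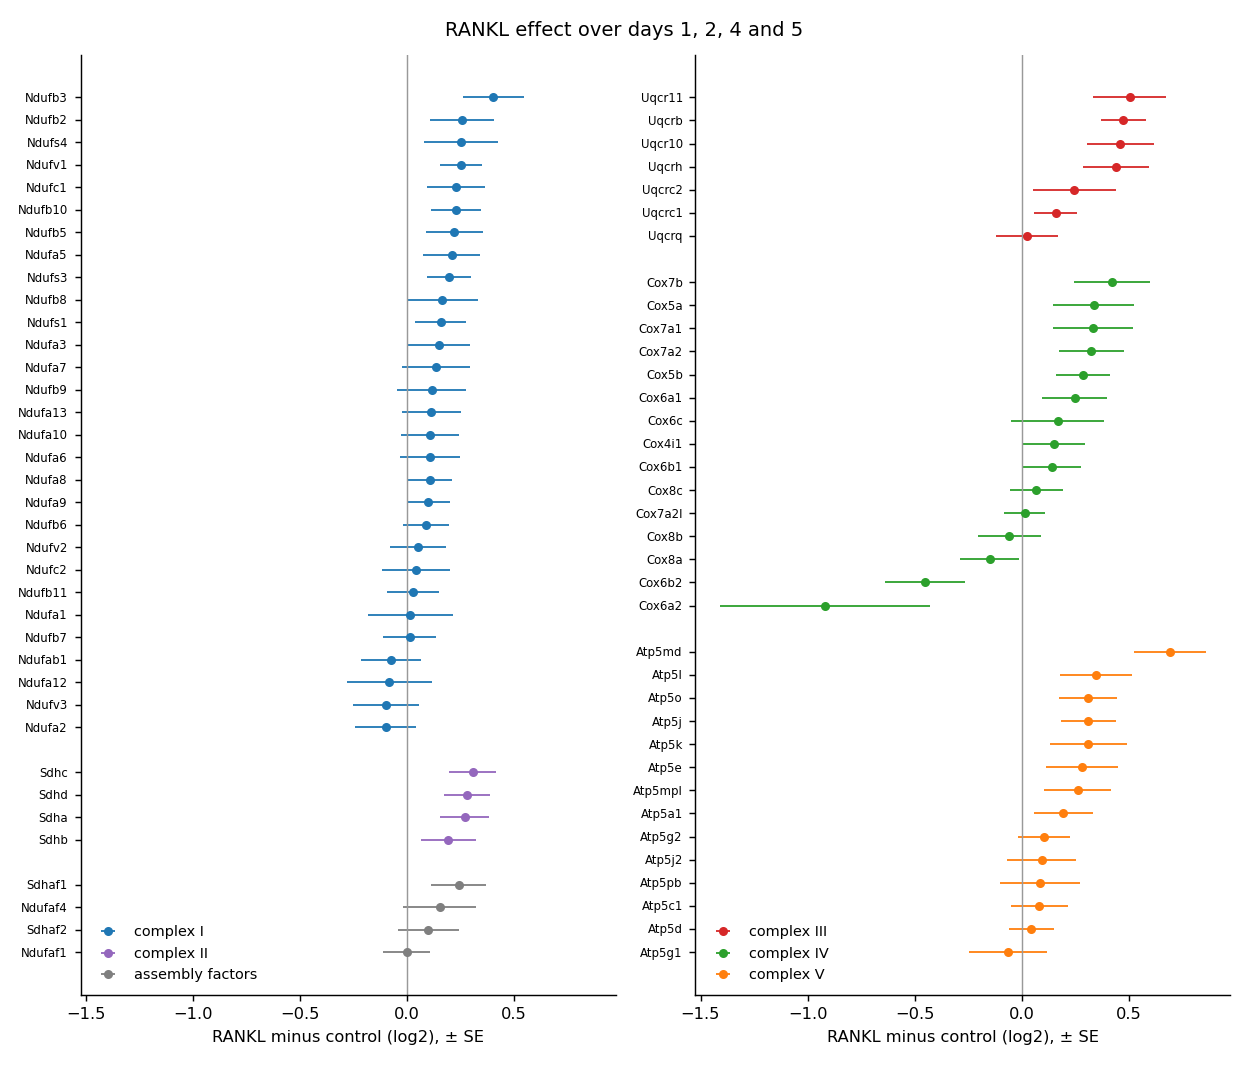
RANKL effect on every gene over days 1, 2, 4 and 5, as log2 change with its standard error, grouped by complex. All 7 complex III genes and all 4 complex II genes lie above 0, and Cox6a2 is the lowest at -0.92.

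Complex III held the largest median. Uqcrb, a ubiquinone-binding subunit, had signals of 2687 (day 1), 1719 and 1973 (day 2), 2114 and 2034 (day 4) and 2170 and 2702 (day 5) in RANKL cells. The control arrays had 1774 (day 1), 1727 and 1758 (day 2), 1098 and 1476 (day 3), 1258 and 1382 (day 4) and 1597 (day 5). At days 4 and 5 every RANKL array was above every control array. Its log2 change was 0.48 ± 0.11 (SE; adjusted p = 0.0616), which missed the threshold. It passed once RANKL day 5 replicate 1 was left out (0.51). Uqcr11, the smallest subunit, had 3056 (day 1), 2889 and 5899 (day 2), 2283 and 2051 (day 4) and 2143 and 3008 (day 5) in RANKL cells. In control cells it had 3044 (day 1), 3121 and 2384 (day 2), 1654 and 1606 (day 3), 1517 and 1284 (day 4) and 1446 (day 5). Its control signals fell over the culture while those of RANKL cells at days 4 and 5 stayed above all controls of those days, and its change over the 4 days was 0.50 ± 0.17 (adjusted p = 0.239). The change passed without RANKL day 2 replicate 1 (0.63). Uqcr10, another small subunit, and Uqcrh, the hinge protein that binds cytochrome c1, differed by 0.46 ± 0.16 and 0.44 ± 0.15 (adjusted p = 0.239 and 0.264), and Uqcrc1, a core protein, by 0.16 ± 0.10 (adjusted p = 0.648).

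Promoter windows of 250 bases before to 50 after the annotated start (RefSeq, GRCm38.p6) were held for 60 of the 73 genes, 4 of them in complex III. The windows of the 3 complex III genes that contain a searched motif are shown. They were chosen by motif and not by change, as all 7 genes of complex III had positive changes. The window of Uqcr10 holds none of the letters searched, and its RANKL effect over days 1, 2, 4 and 5 was 0.46. The letters of nuclear respiratory factor 1 (NRF1 core, GCATGCGC) and of ETS factors such as GABP (CCGGAAG), families known to regulate respiratory genes, are in capitals.
Uqcr11: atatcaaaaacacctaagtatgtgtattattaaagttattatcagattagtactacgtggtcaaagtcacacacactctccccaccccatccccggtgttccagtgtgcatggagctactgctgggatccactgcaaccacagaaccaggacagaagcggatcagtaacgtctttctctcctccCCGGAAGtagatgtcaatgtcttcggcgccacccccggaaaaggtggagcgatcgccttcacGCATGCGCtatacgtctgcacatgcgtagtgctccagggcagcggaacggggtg
Uqcrc1: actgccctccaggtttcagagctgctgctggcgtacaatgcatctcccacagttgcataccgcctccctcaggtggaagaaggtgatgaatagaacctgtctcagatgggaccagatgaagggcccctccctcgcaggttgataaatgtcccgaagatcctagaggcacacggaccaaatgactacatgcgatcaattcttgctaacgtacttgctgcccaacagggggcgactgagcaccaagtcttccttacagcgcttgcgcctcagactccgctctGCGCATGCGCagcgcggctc
Uqcrh: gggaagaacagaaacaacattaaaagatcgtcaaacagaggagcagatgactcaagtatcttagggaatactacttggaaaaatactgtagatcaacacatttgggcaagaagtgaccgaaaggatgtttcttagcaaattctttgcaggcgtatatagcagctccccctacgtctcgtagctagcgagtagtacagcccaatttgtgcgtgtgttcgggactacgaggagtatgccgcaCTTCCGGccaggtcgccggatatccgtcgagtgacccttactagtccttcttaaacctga
The windows lie at chr10:80406772-80407071, minus strand, at chr9:108936398-108936697, plus strand, and at chr4:116075021-116075320, minus strand, each written 5 prime to 3 prime on its gene's strand. Uqcr11 holds an ETS core at -66 and an NRF1 core at -4 from the start, Uqcrc1 holds overlapping NRF1 cores on both strands at 31 and 33, and Uqcrh holds an ETS core at -10 on the other strand. The NRF1 core was in 10 of 60 windows of the set (16.7%), against 2.8% of 27025 windows of all genes, and the ETS core in 28.3% against 9.12%. The YY1 core AAGATGG was in 11.7% against 6.48%, and the oestrogen-related receptor letters AAGGTCA in 8.33% against 4.66%. A loose pattern for MEF2, a muscle regulator family, was in 1.67% against 3.7%. It allowed any base at its middle positions, so whether MEF2 sites themselves are rarer in the set was not tested. The windows of the set were richer in GC (median 59.0% against 52.7%) and in CpG (19 against 7), and the NRF1 and ETS letters are themselves rich in G and C. These are matches of letters on either strand and say nothing of binding.

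**Figure D3:**
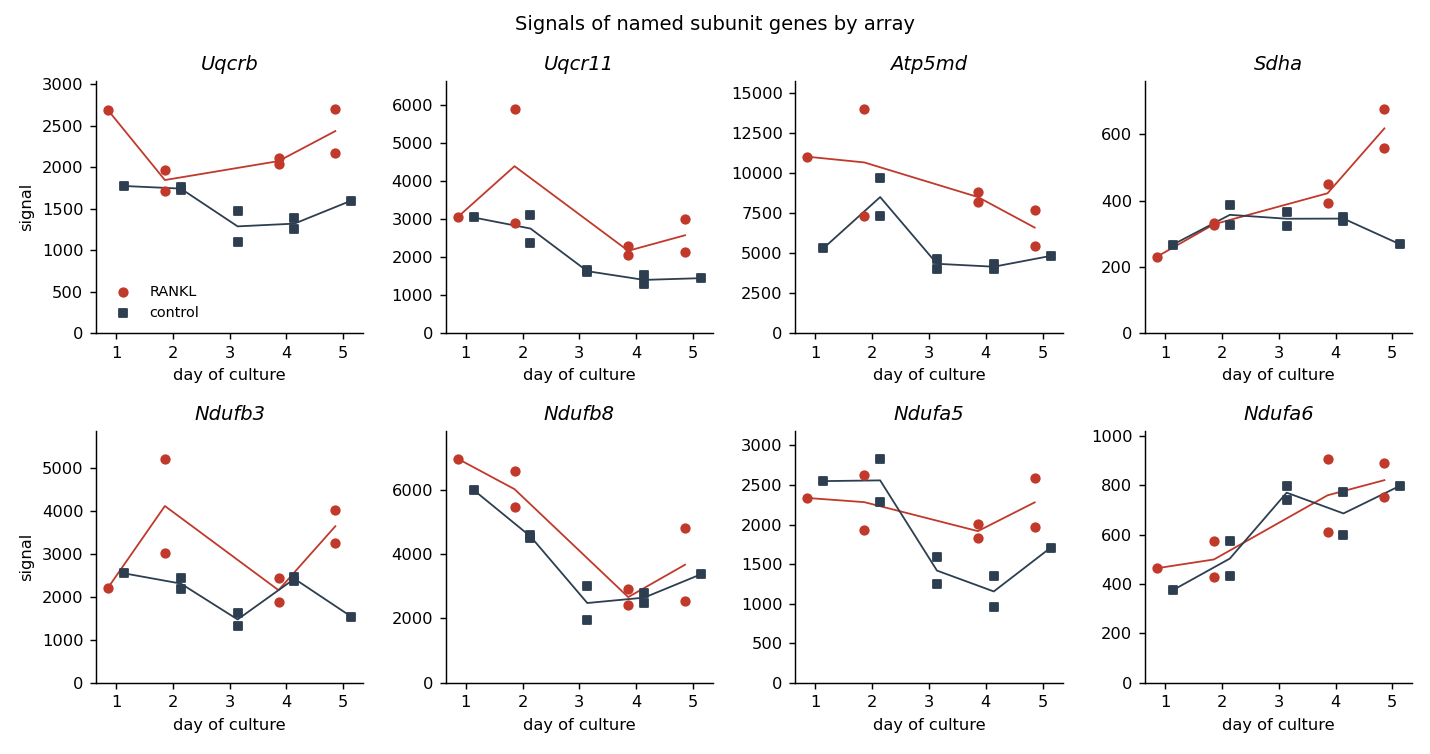
Signal of 8 genes (Uqcrb, Uqcr11, Atp5md, Sdha, Ndufb3, Ndufb8, Ndufa5 and Ndufa6) on every array by day, on a linear axis, RANKL red circles and control dark squares. Uqcrb and Uqcr11 show the RANKL arrays of days 4 and 5 above all control arrays of those days, and Ndufb8 is lower at days 4 and 5 than at days 1 and 2 in RANKL cells.

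In complex V the largest change was in Atp5md (DAPIT), a small subunit known for holding ATP synthase dimers. Its signals were 11037 (day 1), 7338 and 14019 (day 2), 8191 and 8836 (day 4) and 5473 and 7728 (day 5) in RANKL cells. The control arrays had 5302 (day 1), 9685 and 7337 (day 2), 4661 and 4012 (day 3), 3984 and 4323 (day 4) and 4829 (day 5). The groups overlap at day 2 and are separate at days 4 and 5. Its log2 change over the 4 days was 0.69 ± 0.17 (adjusted p = 0.0871), and it passed once RANKL day 2 replicate 1 (0.81) or RANKL day 5 replicate 1 (0.76) was left out. Atp5j (coupling factor 6) and Atp5o (the oligomycin-sensitivity subunit of the stalk) differed by 0.31 each (adjusted p = 0.389 and 0.417). Atp5g1 and Atp5g2, 2 of the 3 genes that encode the ring's c subunit, differed by -0.06 and 0.10. Atp5k (subunit e of the membrane part) had a difference of 1.36 ± 0.38 at day 5 (adjusted p = 0.121), which rests on 1 control array at 62.6, against 167 and 265 on the RANKL arrays.

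In complex II all 4 subunits were higher in RANKL cells over the 4 days, Sdhc by 0.31 ± 0.11, Sdhd by 0.28 ± 0.11, Sdha by 0.27 ± 0.11 and Sdhb by 0.20 ± 0.13 (adjusted p = 0.278, 0.333, 0.397 and 0.67). Sdha, the flavoprotein that oxidises succinate, had signals of 231 (day 1), 325 and 332 (day 2), 393 and 451 (day 4) and 559 and 676 (day 5) in RANKL cells. In control cells it had 267 (day 1), 387 and 327 (day 2), 366 and 324 (day 3), 339 and 352 (day 4) and 268 (day 5). The RANKL arrays of days 4 and 5 were above every other array, RANKL or control. At day 5 the difference was 1.11 ± 0.24 (adjusted p = 0.0573, 2 arrays against 1), and the change of the RANKL effect between the early and late days was 0.83 ± 0.23 (adjusted p = 0.41).

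In complex I, Ndufb3, an accessory subunit of the membrane arm, had 2218 (day 1), 3021 and 5224 (day 2), 2433 and 1886 (day 4) and 3266 and 4035 (day 5) in RANKL cells. The control arrays had 2553 (day 1), 2447 and 2180 (day 2), 1621 and 1332 (day 3), 2467 and 2385 (day 4) and 1543 (day 5). Its change over the 4 days was 0.40 ± 0.14 (adjusted p = 0.274) and at day 5 1.22 ± 0.30 (adjusted p = 0.0831). Ndufv1, the core subunit that binds NADH and FMN, differed by 0.25 ± 0.10 (adjusted p = 0.333). Ndufc2 had a day 5 difference of 1.49 ± 0.33 (adjusted p = 0.0631), but its control array at day 5 read 7.54, far below the median signal of any array. The 4 assembly factors had a median of 0.13, with none past the threshold.

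Complex IV ran between Cox7b (0.42 ± 0.18, adjusted p = 0.394) and Cox6a2 (-0.92 ± 0.49, adjusted p = 0.547). Cox5b, a nuclear-encoded subunit that binds zinc, differed by 0.29 ± 0.13, and Cox6b2, the testis-type partner of Cox6b1, by -0.45 ± 0.19, on an r-type probe set (adjusted p = 0.423 and 0.379). Cox4i1, the partner of Cox4i2 that most tissues use, differed by 0.15 ± 0.15. Cox8a was below the median of the table, with signals of 6.78 to 50.3 over the 15 arrays and a difference of -0.15 ± 0.14.

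By day, none of the genes passed at day 1 (0% of all probe sets did), at day 2 (0.853%), at day 4 (0.266%) or at day 5 (0.918%). At an unadjusted p under 0.05, day 1 had 2 higher and 2 lower (2.07% and 3.79% of all probe sets), and day 2 had 8 higher and 0 lower (4.38% and 5.69%). Day 4 had 3 higher and 1 lower (3.9% and 4.23%), and day 5 had 12 higher and 1 lower (8.36% and 5.84%). The median log2 change was 0.02 (day 1), 0.21 (day 2), 0.05 (day 4) and 0.27 (day 5), the last beside 0.11 for all probe sets. The count of day 5 became 1 with either RANKL day 2 array left out and 2 with RANKL day 5 replicate 1 left out. The day 2 median turns on which array is kept: without RANKL day 2 replicate 2 it was -0.01, and without replicate 1 it was 0.41. The change of effect between days 1 and 2 and days 4 and 5 had a median of 0.03 (0.08 for all probe sets). None passed the threshold (0.0403% of all), and 4 were higher and 1 lower at an unadjusted p under 0.05 (5.3% and 2.74%). Over days 2, 4 and 5 alone, a comparison added after seeing the data, none passed (3.43%), 62 of 73 were positive (58.1% of all probe sets) and the median was 0.19. At an unadjusted p under 0.05, 16 were higher and 1 lower there (7.59% and 7.41%). With RANKL day 2 replicate 1 or RANKL day 5 replicate 1 left out, 4 passed.

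At days 4 and 5 every RANKL array was above every control array for 10 of the 73 genes (13.7%, against 5.26% of all probe sets): Uqcrb, Uqcr10 and Uqcr11 of complex III, Sdha and Sdhaf2, Ndufa5, Cox7a2 and Cox7b, and Atp5md and Atp5mpl. Only Cox6a2 was below (3.71% of all probe sets). Over days 2, 4 and 5 no gene of the set was separate in either direction (0.789% of all probe sets above and 0.564% below).

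The next comparison asks how the genes differed between later and earlier days within each treatment, as the mean of days 4 and 5 minus that of days 1 and 2. In RANKL cells 12 genes passed (14.8% of all probe sets), of which 3 rose (8.98% of all) and 9 fell (5.82%), and the median of the 73 was -0.23 against 0.05 for all probe sets. The count was 23 with RANKL day 2 replicate 1 left out, and 7 with its second replicate or with RANKL day 5 replicate 1 left out. Ndufb8, of the membrane arm of complex I, had 6955 (day 1), 5453 and 6567 (day 2), 2913 and 2407 (day 4) and 2533 and 4798 (day 5) in RANKL cells and fell by 1.08 on the log2 scale (SE 0.22, adjusted p = 0.00851). Every array of days 4 and 5 was below every array of days 1 and 2. Ndufa3 fell by 0.89, Atp5o by 0.88, Atp5k by 0.84, Ndufb2 and Cox5b by 0.75, Ndufb7 by 0.65, Ndufa9 by 0.64 and Uqcrc1 by 0.50 (adjusted p from 0.00825 to 0.0391).

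Of those that rose, Sdha rose by 0.82 ± 0.15 (adjusted p = 0.00544), Ndufa6, an accessory subunit of the peripheral arm of complex I, by 0.67 ± 0.19 (adjusted p = 0.0344), and Cox6a2 by 2.74 ± 0.66 (adjusted p = 0.0172). Of the 12, 5 passed with each array left out in turn: Cox5b, Ndufb8, Sdha, Ndufa9 and Ndufa3. Atp5o was lost with the RANKL day 1 array left out (-0.66), and Uqcrc1, Ndufb7, Ndufb2 and Atp5k with any of RANKL day 2 replicate 2, day 4 replicate 2 and day 5 replicate 1 left out. Ndufb2 was also lost with the RANKL day 1 array left out and Atp5k with either control day 2 array. Ndufa6 was lost with any of 7 arrays left out (0.53 to 0.81 over all 15). With the beta-actin ratio as a covariate 4 passed, Ndufb8, Sdha, Ndufa9 and Atp5o, with Ndufb8 at -1.27 and Sdha at 0.84. A second bright probe set for Ndufb2 also fell (-0.86), while the second, dim one for Ndufb7 read 0.51. Of the 27 other probe sets, 13 had the sign of the one used over time in RANKL cells and 22 did in control cells.

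Markers of cell state moved over the same days. Of all probe sets, 8.98% rose and 5.82% fell in RANKL cells, and 5.98% rose and 4.87% fell in control cells. In RANKL cells 4 of 8 osteoclast markers rose, among them Mmp9, a matrix metalloproteinase (3.38), and Ctsk (3.21), and 2 of 11 macrophage markers, Itgam (2.40) and Adgre1 (1.33), and none of either list fell. In control cells 5 of 11 macrophage markers rose and none fell (median 0.92), with Itgam at 2.56 and Mpeg1 at 2.51. There 3 osteoclast markers fell, Nfatc1 (-2.44), Acp5 (-2.25) and Car2 (-0.92), and Clcn7 rose (0.70). The part of these in the subunits' changes over time was not tested.

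In control cells 7 genes passed (10.9% of all probe sets), 3 higher (5.98%) and 4 lower (4.87%), with a median of -0.27 against -0.05 for all probe sets. The count was 3 without the control array of day 1, 1 and 4 without control day 2 replicates 1 and 2, and 4 and 3 without control day 4 replicates 1 and 2. Ndufa6 rose by 0.73 ± 0.21 and Cox7a2l, a protein known for joining complexes III and IV into supercomplexes, by 0.55 ± 0.14 (adjusted p = 0.0448 and 0.0306). Cox7a2l had 2493 (day 1), 2696 and 2330 (day 2), 3802 and 4565 (day 3), 3920 and 4021 (day 4) and 3403 (day 5) in control cells. Atp5k fell by 1.12, Uqcr11 by 1.00, Ndufa5 by 0.85 and Ndufb7 by 0.79 (adjusted p from 0.0193 to 0.0263). Atp5k had -0.46 with the control array of day 5 left out (adjusted p = 0.435). All 7 but Cox6a2 were lost with at least 2 of the control arrays left out in turn, one of them control day 2 replicate 1 for each of the 6, but none turned its sign. With the beta-actin ratio as a covariate none of the 7 passed. Every control array of days 3 to 5 was below every control array of days 1 and 2 for 25 of 73 genes (34.2%, against 10% of all probe sets), 5 of them in complex III, and Cox6a2, Cox7a2l and Ndufa6 were above (10.7%). In RANKL cells the arrays of days 4 and 5 were all below those of days 1 and 2 for 12 genes (16.4%, against 8.24%), and above for Ndufa6, Ndufaf4 and Sdha (11.8%). Between control days 2 and 3, a comparison added after seeing the data, 3 genes passed (7.08% of all probe sets), Cox6a2 and Cox7a2l higher (4.09%) and Ndufa5 lower (2.99%), and the median was -0.27. Each was lost with any of those 4 arrays left out. Between control day 3 and days 4 and 5 none passed (0%), 1 was higher and 1 lower at an unadjusted p under 0.05 (2.04% and 4.23%), and the median was 0.00.

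The 2 culture-time comparisons share no array. Of the 73 genes, 53 had the same sign in both (72.6%, against 65.8% of all probe sets), 47 lower in both and 6 higher in both. By complex, the median in RANKL cells was -0.25 for I, -0.22 for II, -0.29 for III, 0.22 for IV and -0.43 for V, and in control cells it was -0.27, -0.15, -0.47, -0.10 and -0.36 in the same order; the positive value of complex IV in RANKL cells turned to -0.09 without the RANKL array of day 1.

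**Figure D4:**
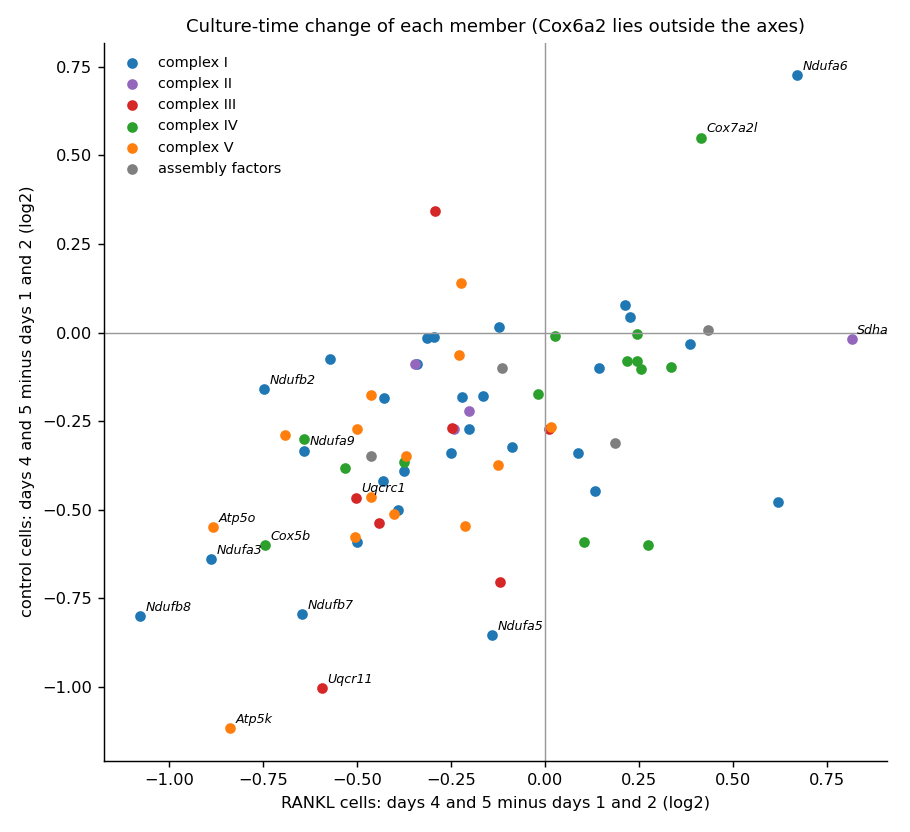
Change over culture time of each gene in RANKL cells (horizontal axis) and in control cells (vertical axis), both in log2, days 4 and 5 minus days 1 and 2. Most points, 47 of 73, lie below 0 on both axes; Cox6a2 (2.74 and 4.31) lies outside the axes.

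Cox6a2, the muscle-type subunit VIa of complex IV, moved most. It had 25.6 (day 1), 48.5 and 27.6 (day 2), 962 and 664 (day 4) and 769 and 25.4 (day 5) in RANKL cells. In control cells it had 31.1 (day 1), 45.2 and 43.7 (day 2), 1494 and 1173 (day 3), 1100 and 1261 (day 4) and 1529 (day 5). Its signals were low on all 6 arrays of days 1 and 2 (25.6 to 48.5) and high, 664 to 1529, on 8 of the 9 arrays of days 3 to 5, the exception being RANKL day 5 replicate 2 at 25.4. Over culture time it rose by 2.74 ± 0.66 in RANKL cells, where the call was lost without RANKL day 2 replicate 2 (2.63, adjusted p = 0.0594) and the size was 1.79 without RANKL day 5 replicate 1 (adjusted p = 0.00207) and 3.69 without replicate 2 (adjusted p = 3.91e-05). It rose by 4.31 ± 0.72 in control cells (adjusted p = 0.00459; 19.8-fold on the log2(signal + 32) scale), where it passed with each array left out in turn. With the beta-actin ratio as a covariate the control change was 4.60 (adjusted p = 0.0556). Between control day 2 and day 3 it rose by 4.15 ± 0.84 (adjusted p = 0.0158), a call lost when any of those 4 arrays was left out, and between day 3 and days 4 and 5 no gene of the set passed.

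Leaving out RANKL day 5 replicate 2, the RANKL arrays of days 4 and 5 read 664 to 962 and the control arrays of days 3 to 5 read 1100 to 1529. The RANKL effect at day 5 was -2.86 ± 1.02 (adjusted p = 0.231), was -4.77 without replicate 1 (adjusted p = 0.000147) and was -0.96 without replicate 2 (adjusted p = 0.39), so its size turns on which replicate is kept. Over the 4 days together it was -0.92, and -1.40 without replicate 1 (adjusted p = 0.00136) but -0.44 without replicate 2 (adjusted p = 0.317). None of the 22 markers of skeletal and cardiac muscle passed in the RANKL comparison. Over culture time in RANKL cells 1 of them fell (5.82% of all probe sets) and none rose (8.98%). Their summed signal was 1952 to 2450 on RANKL arrays of days 4 and 5 and 2362 to 3193 on those of days 1 and 2, and 1928 to 2265 on control arrays of days 3 to 5 and 2470 to 2902 on those of days 1 and 2. The median signals of the 22 ran from 6.21 for Myh1 (a myosin heavy chain) to 656 for Ryr1 (the muscle calcium release channel). Acta1 (skeletal actin) at 6.31 and Mb (myoglobin) at 14.3 were dim, while Actc1 (cardiac actin) read 363, Myod1 (a muscle transcription factor) 219 and Ckm (muscle creatine kinase) 124. Tnnc1, a troponin, had a median of 47.4 on the arrays of days 3 to 5 other than RANKL day 5 replicate 2, against 11.2 on those of days 1 and 2. The part of these markers in the change of Cox6a2 was not tested.

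Across the 15 arrays the genes most like Cox6a2 by Pearson r of log2(signal + 32) were Gadd45a (0.979), a stress-inducible growth arrest gene, Cxcl2 (0.979), a chemokine, Sirt2 (0.971), Ahi1 (0.962) and Ptgir (0.960), the prostacyclin receptor. These r values are over the same 15 arrays, which fall mostly into early and late days, and are a description. RANKL day 5 replicate 2 is among the 15, so a gene had to be low on it to rank high. Among the subunits, Cox7a2l (r = 0.83) and Ndufa6 (0.66) had the highest r with Cox6a2, and Ndufa8 (-0.92) and Ndufb8 (-0.91) the lowest.

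The ubiquitous partner Cox6a1 did not pass in any comparison: over the 4 days it differed by 0.25 ± 0.15 (adjusted p = 0.637), with signals of 14493 (day 1), 8915 and 16273 (day 2), 7926 and 8629 (day 4) and 8060 and 9253 (day 5) in RANKL cells. The control arrays had 10595 (day 1), 10160 and 8337 (day 2), 7149 and 7464 (day 3), 7921 and 6624 (day 4) and 8859 (day 5). Cox7a2 had 6811 and 6020 at day 4 and 6178 and 6951 at day 5 in RANKL cells, against 4518 and 4991 and 5657 in control cells, each RANKL array above the controls of those days. Its muscle-type partner Cox7a1 was dim, with 36.0 to 110 in RANKL cells and 14.5 to 61.9 in control cells, and its day 5 difference was 1.28 ± 0.39 (adjusted p = 0.157). Cox8b, the muscle-type partner of Cox8a, had 149 to 330 over the 15 arrays, on an r-type probe set, and a difference of -0.06 ± 0.15. Signals of different probe sets are not on a common scale, so the levels of partners were not compared. The promoter windows of Cox6a1, a ubiquitous isoform, and Cox7a1, a muscle-type isoform, are shown, and these genes are not partners of each other. Motif letters are in capitals as above.
Cox6a1: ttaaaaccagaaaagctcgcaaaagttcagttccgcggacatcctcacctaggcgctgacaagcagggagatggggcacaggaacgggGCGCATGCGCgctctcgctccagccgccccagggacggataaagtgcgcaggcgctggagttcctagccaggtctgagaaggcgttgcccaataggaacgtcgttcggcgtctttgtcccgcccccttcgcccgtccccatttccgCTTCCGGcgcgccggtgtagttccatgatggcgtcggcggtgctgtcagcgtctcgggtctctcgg
Cox7a1: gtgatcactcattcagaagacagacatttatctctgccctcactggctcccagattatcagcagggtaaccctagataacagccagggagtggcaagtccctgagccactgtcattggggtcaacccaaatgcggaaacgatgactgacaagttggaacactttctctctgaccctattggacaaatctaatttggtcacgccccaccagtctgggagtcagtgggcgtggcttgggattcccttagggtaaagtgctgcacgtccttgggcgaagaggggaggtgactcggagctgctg
These lie at chr5:115348909-115349208, minus strand and at chr7:30183921-30184220, plus strand (RefSeq, GRCm38.p6). Cox6a1 holds overlapping NRF1 cores on both strands at -162 and -160 and an ETS core at -16, and Cox7a1 holds none of the letters searched. The window of Cox7a2, the ubiquitous partner of Cox7a1, was held too and also contains none of them. The window of Cox6a2 was not held, so none is shown.

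**Figure D5:**
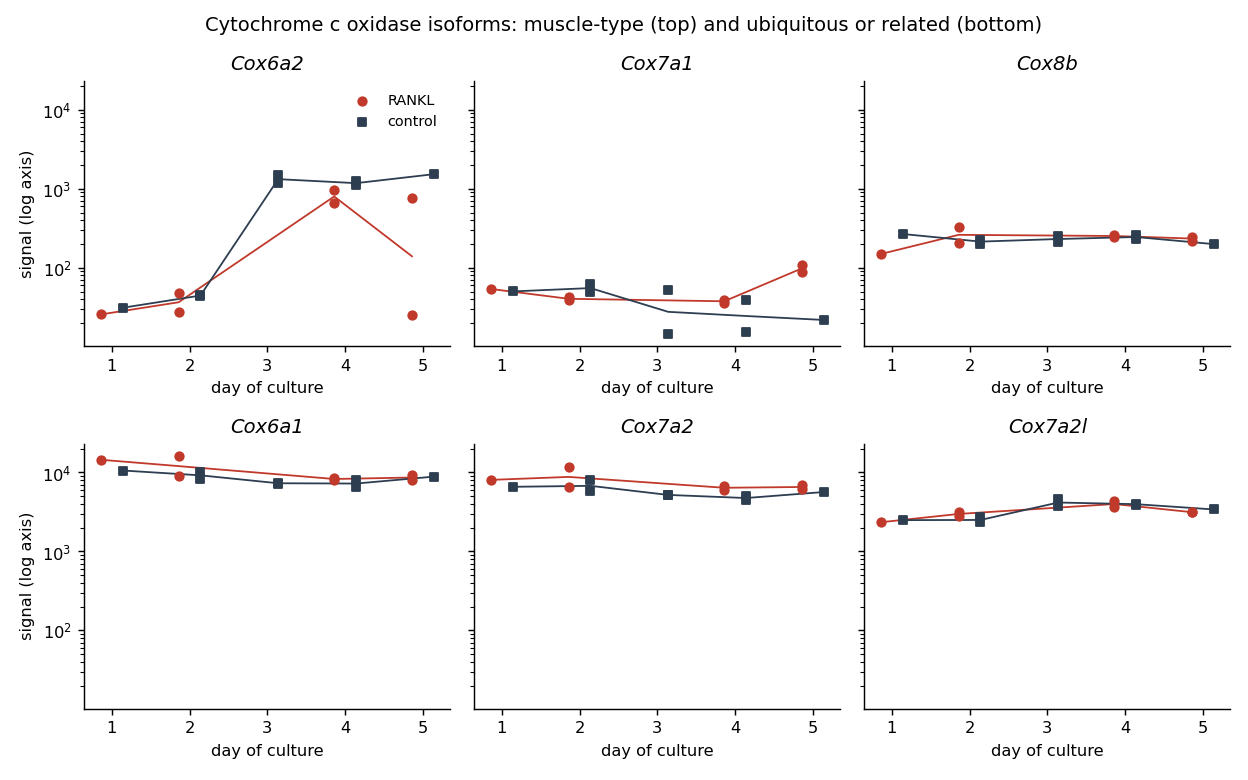
Signals of the isoform pairs on every array by day, on a log axis, muscle-type Cox6a2, Cox7a1 and Cox8b above and Cox6a1, Cox7a2 and Cox7a2l below, RANKL red circles and control dark squares. Cox6a2 steps up after day 2 in both treatments except on RANKL day 5 replicate 2 (25.4).

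The lists of genes around these complexes, chosen with earlier results of these data known, behaved as follows over the RANKL comparison. Of all probe sets, 51.9% were positive and 1.09% passed over the 4 days, while 0.853% passed at day 2 and 0.918% at day 5. Of 18 other respiratory chain and ATP transfer genes, 13 were positive and none passed (median 0.11). At day 5 (2 arrays against 1) Cycs, cytochrome c itself, was higher in RANKL than in control cells by 1.56 ± 0.30 (adjusted p = 0.0377). Its change over culture time in control cells was -0.89 (adjusted p = 0.0216). At day 2 Slc25a5, an adenine nucleotide carrier, was higher in RANKL than in control cells by 0.85 ± 0.15 (adjusted p = 0.0273). Of 19 assembly and insertion factors, 1 passed. Chchd10, a mitochondrial protein of the intermembrane space, was higher in RANKL than in control cells by 1.59 ± 0.15 (adjusted p = 0.000424). Of 23 biogenesis regulators 1 passed: Myc was higher in RANKL than in control cells by 1.67 ± 0.31 (adjusted p = 0.0255). Its control signals fell, with 730 (day 1), 313 and 45.2 (day 2), 18.4 and 25.1 (day 4) and 79.6 (day 5). RANKL cells had 377 (day 1), 813 and 784 (day 2), 214 and 363 (day 4) and 779 and 602 (day 5). Of 21 TCA cycle genes 18 were positive with a median of 0.19 and none past the threshold. Of 19 glycolysis genes 8 were positive with a median of -0.05. Among them Eno3, the muscle-type enolase, was higher in RANKL than in control cells by 0.95 ± 0.18 (adjusted p = 0.0311). Of 23 import genes 18 were positive and none passed, and of 61 mitochondrial ribosome genes 38 were positive and none passed (median 0.04).

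Over culture time, 23 of 61 mitochondrial ribosome genes fell and none rose in RANKL cells (median -0.52), where 5.82% of all probe sets fell and 8.98% rose. In control cells 16 fell and none rose (median -0.54), where 4.87% of all fell and 5.98% rose. Of the 23 import genes 7 fell and 2 rose in RANKL cells, the risers being Lonp1, a mitochondrial protease (0.96), and Tomm70a, an import receptor (0.86), and 7 fell and Lonp1 rose (1.16) in control cells. In the TCA list, Pdha1, a subunit of pyruvate dehydrogenase, rose by 1.11 in RANKL cells and by 1.21 in control cells. Cyc1, cytochrome c1 of complex III, fell by 0.58 in RANKL cells and by 0.77 in control cells.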

How the data were processed

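RNA of 15 arrays (Affymetrix, mouse) was read from the deposited signal table. The signals are intensity values, made by the authors with MAS5 per the submitters' processing notes, and were scaled to a trimmed mean of 500 on every array; the version is not given in the sources used here. Replicates were not pooled. The table held 12488 probe sets; 66 manufacturer controls were left out, and 12422 were tested. Values were moved to log2(signal + 32), so fold changes of dim genes are understated. limma 3.58.1 (R 4.3.3) fitted 1 mean for each of 9 groups over all 15 arrays, with eBayes and an intensity trend, and p-values were adjusted by Benjamini-Hochberg over the 12422 probe sets with a threshold of 0.05. Groups with 1 array (3 of 9) borrow the spread of the others. The fit was tested on simulated data.

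Members and lists were chosen with earlier results of these data known. Genes are named by a rule: all that passed, the largest changes of each complex, and the isoform pairs. Equal replicate numbers were checked for pairing, by the correlation of replicate differences over 15 pairs of groups. It ran from -0.169 to 0.119 over all probe sets and from -0.653 to 0.255 over the genes of the set. Arrays of equal number were not treated as pairs. Alternatives were other pseudocounts, quantile normalization, the brighter probe sets, no trend, the replicate block, the beta-actin ratio as a covariate, the mean of a gene's probe sets, each array left out, and no day 1 arrays. The number of arrays limits the precision. Promoter letters were searched on both strands.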

Additional observations from a re-analysis of the deposited data

How the results depend on the processing

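The direction of the median change over all 73 genes was the same under all alternatives for the RANKL effect over the 4 days (0.11 to 0.22), culture time in RANKL cells (-0.35 to -0.13) and culture time in control cells (-0.32 to -0.22). Counts of genes past the threshold moved more, and the cause was not tested except that the upper 50% of probe sets adjusts over fewer of them. With only those, 2 genes passed over the 4 days, 2 at day 5, 3 over days 2, 4 and 5, 19 over time in RANKL cells, 13 over time in control cells and 7 between control days 2 and 3. With the beta-actin ratio as a covariate the counts over time were 4 in RANKL cells, 0 in control cells and 0 between control days 2 and 3. At day 5, 1 passed with a pseudocount of 1, 1 with quantile normalization, 1 with no intensity trend and 2 with the mean of a gene's probe sets; over days 2, 4 and 5 these gave 1, 3, 1 and 1. Without the day 1 pair, 3 passed over time in control cells. Leaving out each array gave 0 to 3 over the 4 days, 0 to 2 at day 5, 0 to 1 for late minus early, 7 to 23 and 1 to 10 over time in RANKL and control cells, 0 to 4 over days 2, 4 and 5, 0 to 5 between control days 2 and 3, and a day 2 median of -0.0074 to 0.41. Of 66 medians, over the 73 genes or a complex, 23 changed sign under at least 1 alternative, among them that of all genes at day 1 (-0.0047 to 0.0509) and late minus early (-0.1107 to 0.1222), complex I at day 5 (-0.0085 without RANKL day 5 replicate 2) and complex III late minus early (from -0.0874). Those that moved by more than the SD between replicates, and single genes, were as follows. Signs turned for Atp5l at day 1 (-0.10 with the mean of probe sets); at day 2 without RANKL day 2 replicate 2 for the median of all genes (-0.0074), complex IV (-0.0394, left-out range to 0.3312) and Cox6a2 (0.0751, range from -0.3603); at day 4 for complex I without RANKL day 4 replicate 2 (0.14); for late minus early in complex IV (-0.0119 with the upper 50%, -0.13 without either or both day 1 arrays) and Ndufc2 (-0.15 without either or both, left-out range to 1.174); and for complex IV over time in RANKL cells (-0.0948 without the RANKL day 1 array or the day 1 pair). With the replicate number as a block, 0 genes passed over the 4 days, 10 over time in RANKL cells and 6 over time in control cells. In the check given with the processing, r ran from -0.169 to 0.119 over all probe sets and from -0.653 to 0.255 over the 73 genes. The number of arrays limits all of these, and 8 of the 73 genes were below the table's median signal.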
